A study of Mus musculus with 6 samples.

Results

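Histamine signalling was described through 5 genes in the mouse dorsal striatum. They were Hdc, which makes histamine, the receptor genes Hrh1, Hrh2 and Hrh3, and Hnmt, which inactivates it. They were taken by gene name from the deposited count table of 34745 genes. All 5 were listed once each, and all 5 passed the filter on low counts that left 15267 genes for testing. Tissue came from Ash1l heterozygous mice (Ash1l het, 3 libraries) and from wild type mice (WT, 3 libraries). Both groups were C57BL/6 and 1 year old. Ash1l encodes a histone methyltransferase, and the sources used here do not describe the mutation. RNA was extracted from dissected tissue with TRIzol, so fewer cells of a type and less RNA per cell cannot be told apart in these values.

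Histamine is made from histidine in a single step by histidine decarboxylase. In the brain the neurons that make it lie in the tuberomammillary nucleus of the hypothalamus and send axons to many regions, the striatum among them, while mast cells are a second source. The H1 receptor couples to Gq proteins and phospholipase C, the H2 receptor to Gs proteins and cyclic AMP, and the H3 receptor to Gi/o proteins. H3 sits on histamine axons as an autoreceptor, on other axon terminals, and on the spiny projection neurons that form most of the striatum. Histamine taken out of the synapse is methylated by histamine N-methyltransferase and then oxidised by monoamine oxidase B. HDC has been linked to tic disorders in humans, and loss of the gene in mice is used as a model of them.

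The libraries held 12080663 to 18798694 counts. The labels describe male mice, which goes against the data. Xist, the RNA that coats the silenced X chromosome in female cells, was at 1956 to 2957 CPM (counts scaled by library size and the TMM composition factor) in every library, and the Y chromosome genes Kdm5d, Uty, Ddx3y and Eif2s3y summed to at most 1 count in a library. Ash1l itself had 4138, 3033 and 4598 counts in Ash1l het, against 3719, 4942 and 5053 counts in WT. All 3 Ash1l het libraries were below all 3 WT libraries in CPM, as for 5.53% of tested genes. The Ash1l difference did not pass (log2 fold change -0.29, edgeR adjusted p = 0.858). Ash1l het replicates 1 and 2 stood apart on the first principal component, at -18.5 and -30.5 against 4.22 to 19.95 for the other 4 libraries. On the second component these 2 libraries lay at opposite ends, at 34.6 and -25.4, against -4.57 to 0.984 for the other 4. The astrocyte filament gene Gfap was at 412 and 733 CPM in those 2 libraries, at 104 CPM in Ash1l het replicate 3, and at 62.1 to 154 CPM in WT. Spiny projection neuron markers were present: all 10 on the list were tested, and their summed level was 5263 to 6768 CPM in Ash1l het, against 6131 to 6949 CPM in WT. Whether every library came from its own animal is not stated in the labels, so the spread behind the p-values may be partly technical.

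The receptors and the enzymes differed widely in level. Levels of different genes can be compared only per length, and the deposited FPKM (counts scaled by gene length and library total) were used first. Hrh3 was highest, at 12.5 ± 1.26 FPKM in Ash1l het and 16.8 ± 0.933 FPKM in WT (SD, n = 3 each), and its mean over the 6 libraries stood at percentile 89.2 of the 21693 genes with a count. Hnmt followed at 3.55 ± 0.401 FPKM in Ash1l het and 3.24 ± 0.473 FPKM in WT. Hrh2 was at 1.62 ± 0.0866 FPKM in Ash1l het and 1.39 ± 0.0666 FPKM in WT.

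Hdc and Hrh1 were the lowest of the 5. Hdc was at 0.313 ± 0.0727 FPKM in Ash1l het and 0.299 ± 0.00760 FPKM in WT, at percentile 32.2 of genes with a count. Hrh1 was at 0.218 ± 0.0783 FPKM in Ash1l het and 0.228 ± 0.0198 FPKM in WT. Over the 6 libraries Hdc ran from 0.268 to 0.397 FPKM and Hrh1 from 0.133 to 0.286 FPKM, so these neighbours in the order overlapped, while Hrh3, Hnmt and Hrh2 did not overlap with each other or with the lowest pair.

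The order of the low genes depended on the length used. The length behind the deposited FPKM was 8213 bases for Hrh3, although the whole gene spans 5024 bases. That length equals the sum of all distinct exons over the 8 Hrh3 transcripts of GENCODE M21, in which overlapping exons are counted more than once. The same held for Hnmt (3357 bases), Hrh1 (12835) and Hdc (7503), while Hrh2 was divided by 2789 bases, the length of its principal transcript. With overlapping exons merged, Hrh3 was at 32.6 ± 3.29 FPKM units in Ash1l het and 43.9 ± 2.44 in WT, and Hnmt at 6.73 ± 0.762 in Ash1l het and 6.14 ± 0.898 in WT. On that scale Hrh1 (0.629 ± 0.226 in Ash1l het, 0.658 ± 0.0572 in WT) lay above Hdc (0.368 ± 0.0854 in Ash1l het, 0.351 ± 0.00892 in WT) in the mean and overlapped with Hrh2 (0.760 ± 0.0407 in Ash1l het, 0.651 ± 0.0313 in WT). The merged length of Hrh2, 5935 bases, comes from a GENCODE M21 model that ends beyond the deposited one. Its level on that scale may therefore be too low, and the overlap with Hrh1 may come from this mismatch. Per principal transcript Hdc was above Hrh1 again in the mean, at 0.982 ± 0.228 in Ash1l het and 0.937 ± 0.0238 in WT against 0.740 ± 0.266 and 0.774 ± 0.0673 for Hrh1. With merged exons and per principal transcript alike, the ranges of Hdc and Hrh1 overlapped in Ash1l het and were apart in WT. Hrh3 followed by Hnmt led under all 3 lengths. A gene's length is the same in all libraries, so comparisons between genotypes do not depend on it.

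**Figure D1:**
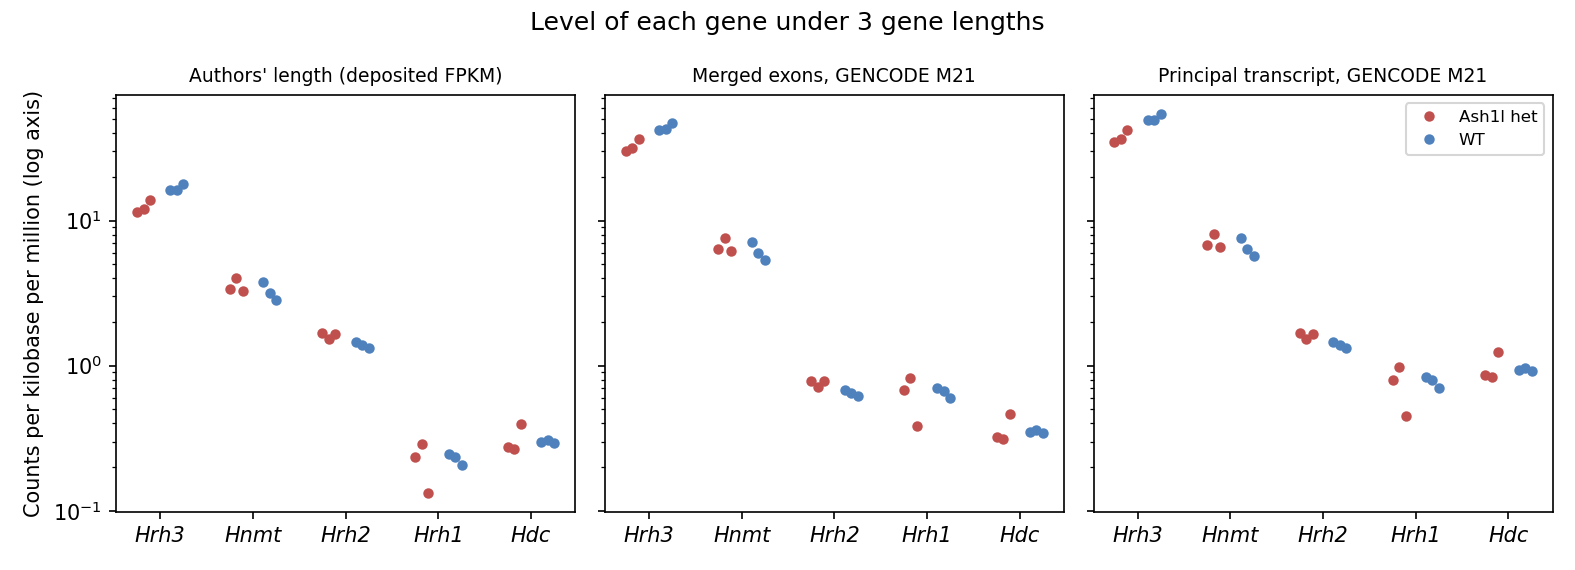
Level of each histamine gene in each library, scaled by gene length and library total (log axis), under the length behind the deposited FPKM, merged GENCODE M21 exons, and the principal transcript; red points are Ash1l het and blue points WT. Hrh3 is highest and Hnmt next in all 3 panels. Hrh1 and Hdc change places in the mean, and Hrh2 overlaps with Hrh1 in the merged-exon panel.

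Hrh3 was the one histamine gene whose groups separated, and it was lower in Ash1l het. Hrh3 (ENSMUSG00000039059; GRCm38 chromosome 2, 180099465 to 180104488, minus strand) encodes the Gi/o-coupled H3 receptor. It had 1373, 1432 and 2145 counts in the Ash1l het libraries and 1608, 2332 and 2551 counts in the WT libraries, before any correction for depth. After scaling by library size it stood at 93.3, 93.3 and 118 CPM in Ash1l het, against 133, 139 and 148 CPM in WT. All 3 Ash1l het libraries lay below all 3 WT libraries. Ash1l het replicate 3 was nearest to WT, and its counting interval (113 to 123 CPM, 95% Poisson) did not reach that of the lowest WT library (127 to 140 CPM). Intervals of this kind cover counting error only.

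The fitted Hrh3 level in Ash1l het was 72.5% of WT (95% interval 60.1% to 87.4%), a log2 fold change of -0.46 (SE 0.12). The unadjusted quasi-likelihood p of edgeR was 0.00363, the rank 72 among 15267 genes, and the adjusted p over all genes was 0.741, so Hrh3 did not pass. The two-sided exact permutation test on CPM gave p = 0.1, the smallest that 3 against 3 allows. Among all tested genes, 0.0131% passed the adjusted test, and 0% passed as lower in Ash1l het. Groups that do not overlap with Ash1l het below WT were found for 5.53% of tested genes and with Ash1l het above WT for 6.18%, and Hrh3 was the 1 histamine gene of 5 in the first class, with 0 of 5 in the second. An unadjusted p under 0.05 was found for 5.78% of tested genes, 2.67% with a lower level in Ash1l het, and among the 5 histamine genes for Hrh3 alone.

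Other measures moved with Hrh3. The lowest Hrh3 levels were in Ash1l het replicates 1 and 2, the libraries with the highest Gfap and with the 4 globin genes at 113 and 96.8 CPM, against 53.5 CPM in Ash1l het replicate 3 and 21.7 to 33.8 CPM in WT. Without both of those libraries, leaving Ash1l het replicate 3 against 3 WT, the log2 fold change was -0.25 (edgeR adjusted p = 0.727, in a range of 0.156 to 1 over all alternatives), with the lone library assumed to vary like the others. It was -0.26 with Gfap as a covariate and -0.039 with globin as a covariate. The globin levels of the 2 groups did not overlap, so that covariate is tied to genotype, and the part of Gfap and blood in the Hrh3 difference was not tested beyond these fits.

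Hrh3 was also set against markers of spiny projection neurons, one of the cell types known to carry the H3 receptor. Per 1000 CPM of 10 spiny projection neuron markers it stood at 17.7, 16.0 and 17.4 CPM in Ash1l het, against 21.7, 20.1 and 21.9 CPM in WT. The groups separated on this scale, as they did in CPM. They overlapped per 1000 CPM of cortical neuron markers (915 to 4420 in Ash1l het, 1740 to 2990 in WT). The same held for astrocyte markers (19.8 to 39.1 in Ash1l het, 30.5 to 43.5 in WT). With each of the other marker lists they separated. Of the 10 spiny projection neuron markers 8 were lower by sign, with a median log2 fold change of -0.15, and 0 passed the adjusted test. An unadjusted edgeR p under 0.05 was found for 3 of them, with Adora2a (-0.42) and Bcl11b (-0.33) lower and Tac1 (0.42) higher. The sum is thus a mixed measure, and the part of spiny projection neurons in the Hrh3 difference was not tested. Hrh3 overlaps the antisense model Gm17180, which had 6 counts in Ash1l het and 7 in WT over all libraries of a group. Within 100000 bases of Hrh3, 7 other genes were tested, with log2 fold changes from -0.17 (Lsm14b) to 0.25 (Lama5) and no unadjusted p under 0.05.

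**Figure D2:**
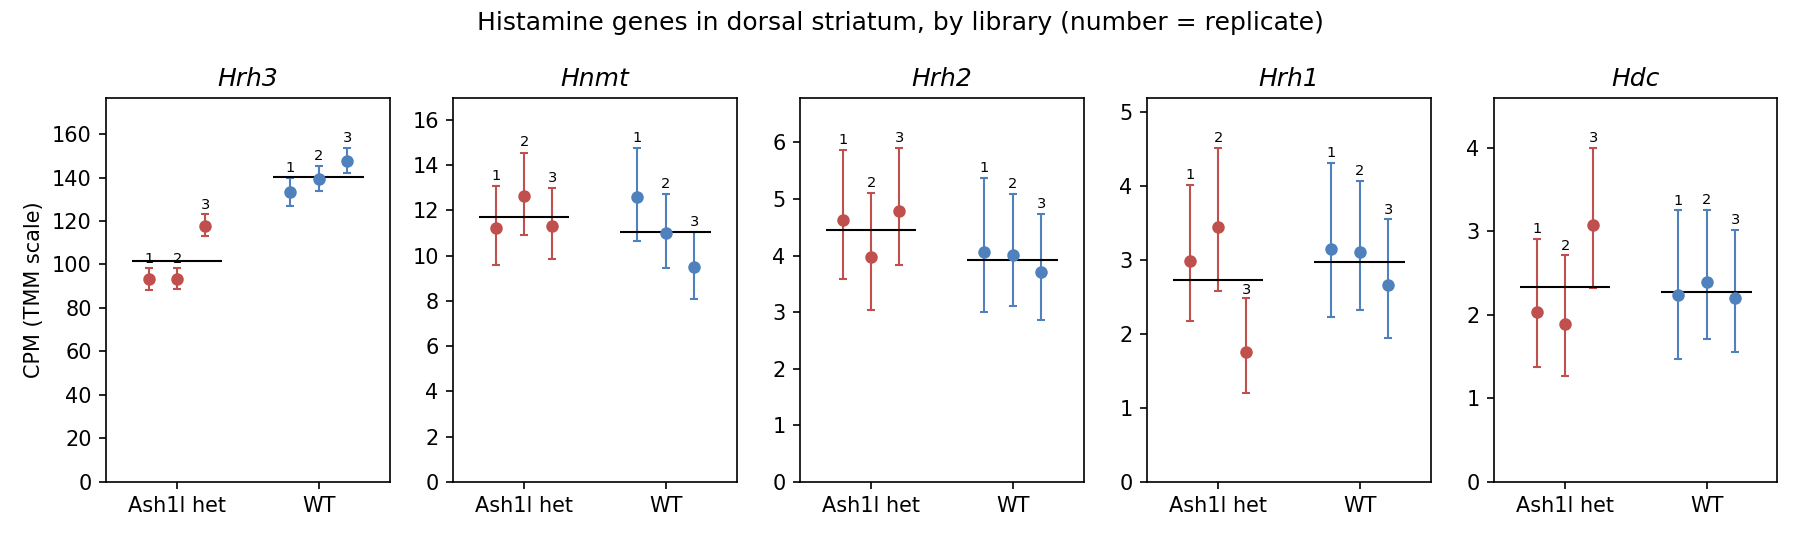
CPM of each histamine gene in each library, with the replicate number above each point, 95% Poisson intervals as vertical bars and group means as horizontal lines. For Hrh3 the Ash1l het libraries (93.3 to 118 CPM) lie below the WT libraries (133 to 148 CPM), and in the other 4 panels the groups overlap.

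The other receptors did not separate the genotypes. Hrh2 (ENSMUSG00000034987; chromosome 13, 54192129 to 54222432 in the deposited table, plus strand) encodes the Gs-coupled receptor. It had 68, 61 and 87 counts in Ash1l het, against 49, 67 and 64 counts in WT, or 4.62, 3.97 and 4.78 CPM in Ash1l het, against 4.06, 4.01 and 3.71 CPM in WT. Two-sided exact permutation gave p = 0.3, and the fitted log2 difference was 0.19 (SE 0.20, edgeR adjusted p = 0.917, 95% interval -0.26 to 0.64). Ash1l het replicates 1 and 3 were above every WT library and replicate 2 was within the WT range. GENCODE M21 ends this gene farther on, at 54236180, so its counts may leave out part of the longer model.

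Hrh1 (ENSMUSG00000053004; chromosome 6, 114397936 to 114483296, plus strand) encodes the Gq-coupled receptor, the target of classical antihistamines. It had 44, 53 and 32 counts in Ash1l het, against 38, 52 and 46 counts in WT. In CPM these were 2.99, 3.45 and 1.76 in Ash1l het and 3.15, 3.11 and 2.66 in WT. Ash1l het replicate 3 was the lowest library of the 6 and replicate 2 the highest, so the Ash1l het range took in the whole WT range. The fitted log2 difference was -0.13 (SE 0.29, edgeR adjusted p = 0.965, 95% interval -0.79 to 0.54).

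Hdc, the synthesis gene, was detected in every library at low counts. Hdc (ENSMUSG00000027360; chromosome 2, 126593667 to 126619299, minus strand) had 30, 29 and 56 counts in Ash1l het, against 27, 40 and 38 counts in WT. In CPM it stood at 2.04, 1.89 and 3.08 in Ash1l het and at 2.24, 2.39 and 2.20 in WT. The 3 WT libraries lay close together, 2 Ash1l het libraries were below all of them and Ash1l het replicate 3 was above all of them. Its counting interval (2.33 to 3.998 CPM) still overlapped that of each other library. The fitted log2 difference was 0.045 (SE 0.28, edgeR adjusted p = 0.986). The 95% interval ran from 66.2% to 161% of WT, so levels across that span remain compatible with these counts.

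The defining protease and IgE receptor genes of mast cells were at or near 0. Of 10 mast cell genes, the chymase Cma1, the tryptases Tpsb2 and Tpsab1, Mcpt4 and the IgE receptor chain Fcer1a had 0 counts in all 6 libraries, which allows up to 0.248 CPM in the shallowest (3 counts, counting error only). Cpa3 had 0 counts in Ash1l het and 2 in WT, and Ms4a2 had 0 in Ash1l het and 1 in WT. The summed mast cell list, 57.4 to 71.3 CPM in Ash1l het, against 67.1 to 72.2 CPM in WT, was almost all Kit, Hpgds and Gata2, which other brain cells also express. The hypothalamic list of 10 genes holds mostly markers of hypothalamic neurons other than those that make histamine. Of these, Oxt, Avp and Npvf had 0 counts in all libraries, Hcrt had 0 in Ash1l het and 2 in WT, Pmch 2 in Ash1l het and 5 in WT, and Agrp 2 in Ash1l het and 3 in WT. Pomc had 32 counts in Ash1l het and 16 in WT, and Prph 10 in Ash1l het and 5 in WT, both under the filter. The orexin receptor gene Hcrtr2 had 41 counts in Ash1l het and 52 in WT, and it passed the filter with overlapping groups. The summed list was at 21.1 to 28.0 CPM in Ash1l het, against 26.4 to 28.9 CPM in WT, mostly from Lhx6, a transcription factor gene that striatal interneurons also express. The basophil genes Mcpt8, Prss34 and Cd200r3 were at 0 counts throughout, while the neutrophil genes S100a8, S100a9 and Ngp had 19, 32 and 31 counts in Ash1l het, against 3, 7 and 1 counts in WT. Ltf, the neutrophil gene for lactoferrin and the 1 gene of 8 on this list that passed the filter, had 23 counts in Ash1l het and 29 in WT (log2 fold change -0.47, groups overlapping), and Camp had 1 count in Ash1l het and 0 in WT. The summed basophil and neutrophil list was at 1.09, 1.76 and 3.46 CPM in Ash1l het, against 0.538 to 1.24 CPM in WT. Ash1l het replicate 3 had both the highest sum and the highest Hdc (3.08 CPM), but the other libraries did not follow. Ash1l het replicate 2, next in the sum, had the lowest Hdc (1.89 CPM). WT replicate 2, with the lowest sum, was next to the highest in Hdc (2.39 CPM). The part of the listed cell types in the Hdc counts was not tested.

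Hnmt (ENSMUSG00000026986; chromosome 2, 24002910 to 24049394, minus strand) encodes the methyltransferase that inactivates histamine in the brain. It had 165, 194 and 206 counts in Ash1l het, against 152, 184 and 164 counts in WT, or 11.2, 12.6 and 11.3 CPM in Ash1l het, against 12.6, 11.0 and 9.50 CPM in WT. WT replicates 2 and 3 were below every Ash1l het library, and WT replicate 1 lay just below the highest Ash1l het library, so the overlap of the groups rested on that 1 WT library. The fitted log2 difference was 0.092 (SE 0.16, edgeR adjusted p = 0.946), and the interval of 83.4% to 136% of WT was the narrowest among the 4 genes whose groups overlapped.

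**Figure D3:**
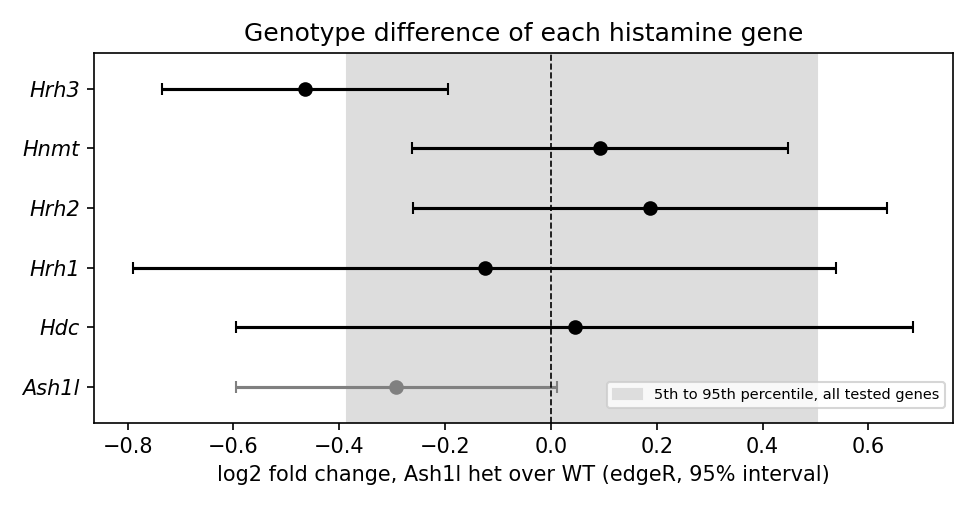
Log2 fold change of Ash1l het over WT with its 95% interval from the edgeR quasi-likelihood fit for the 5 histamine genes (black) and Ash1l (grey); the shaded band is the 5th to 95th percentile of all tested genes, -0.39 to 0.50. Hrh3, at -0.46, lies outside the band, and the intervals of the other 4 histamine genes include 0.

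Across the 5 genes 3 log2 fold changes were above 0 and 2 below, with a median of 0.045 beside 0.0063 for all tested genes, and 0 of 5 passed the adjusted test. Leaving out Ash1l het replicate 3 turned the sign of Hdc (to -0.21) and of Hrh1 (to 0.12), and leaving out WT replicate 3 turned that of Hnmt (to -0.0071), with every adjusted p of these 3 genes at 0.834 or above. With the globin covariate Hrh1 was at -1.27 and Hdc at 0.71, and with the Gfap covariate at -0.70 and 0.41, none past the threshold. By sign, Hrh3 was below 0 and Hrh2 above 0 under all 19 alternatives, with Hrh3 at -0.039 (SE 0.26) under the globin covariate.

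**Figure D4:**
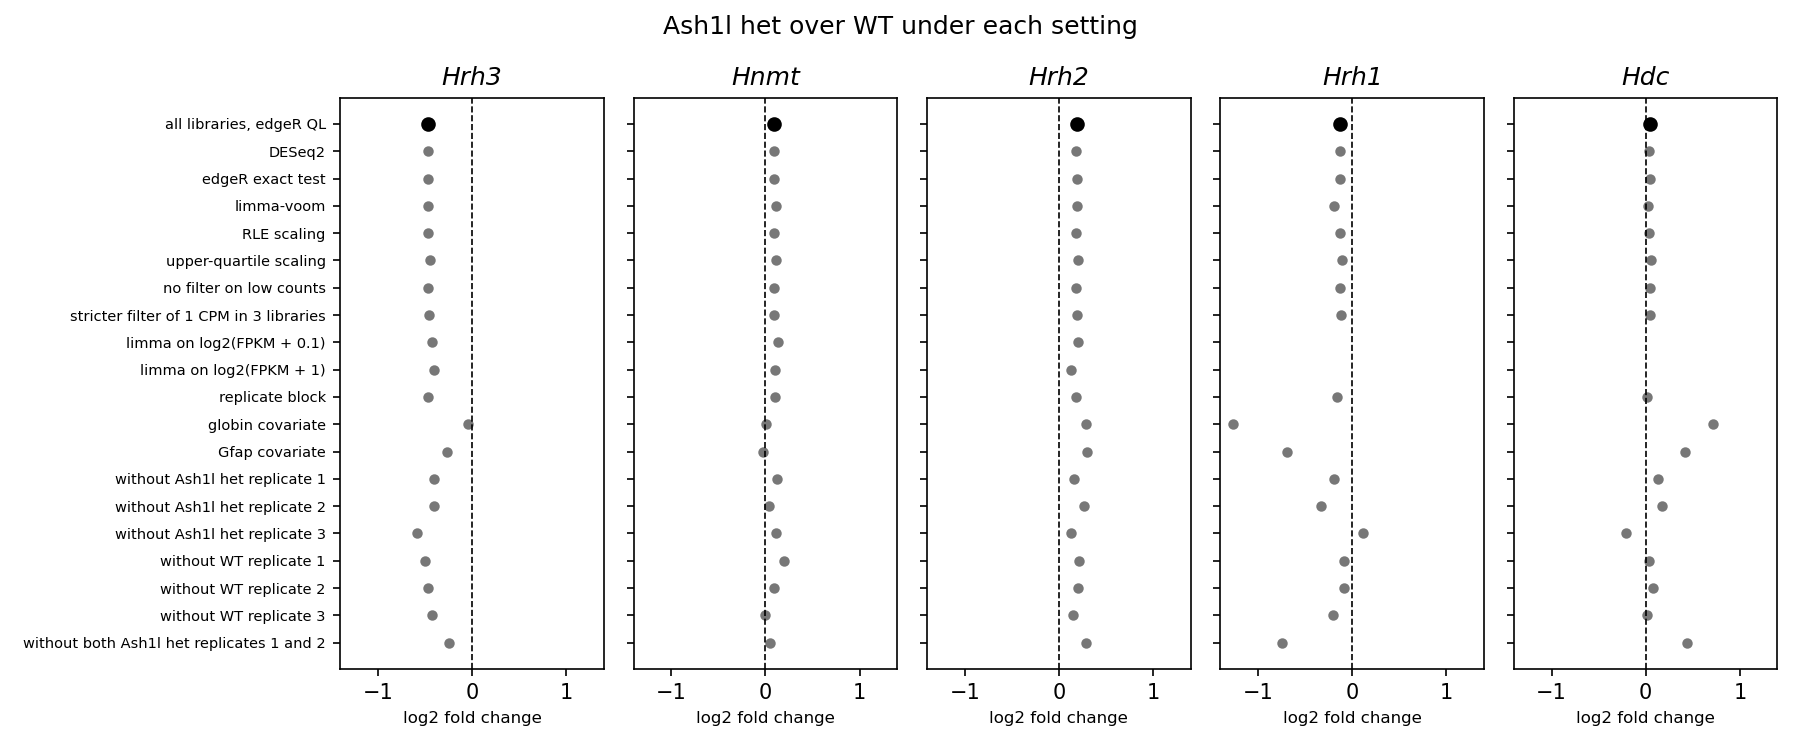
Log2 fold change of Ash1l het over WT for each histamine gene under the fit with all libraries (large black point) and each alternative (grey points); Hdc and Hrh1 miss the FPKM filter and have no point there. Hrh3 stays left of 0 in every row, from -0.59 to -0.039, and Hdc and Hrh1 spread most.

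No gene of the remaining machinery for histamine passed the adjusted test. In the list of breakdown and transport genes, 6 of 10 were tested, 3 higher and 3 lower by sign, with a median log2 fold change of 0.022 and 0 passing. Slc29a4, a low-affinity monoamine transporter, was at 3.25 ± 0.614 CPM in Ash1l het, against 4.49 ± 1.25 CPM in WT (log2 fold change -0.47, SE 0.27, edgeR adjusted p = 0.885). Maoa, a monoamine oxidase, was at 29.7 ± 3.95 CPM in Ash1l het, against 25.4 ± 2.32 CPM in WT (0.22, SE 0.14, adjusted p = 0.889). Maob, which oxidises methylated histamine, was at 33.2 ± 5.25 CPM in Ash1l het, against 37.9 ± 6.37 CPM in WT. Hrh4, the receptor of immune cells, had 0 counts in all 6 libraries. Slc18a2, the vesicular monoamine transporter, had 27 counts in Ash1l het and 15 in WT, and Aoc1, the diamine oxidase of peripheral tissue, 12 in Ash1l het and 9 in WT, both under the filter.

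Among receptor effectors no gene passed. Of 12 genes on the H1 receptor's Gq side, 9 were lower by sign with a median of -0.13. Prkcb, an isoform of protein kinase C, was at 614 and 573 CPM in Ash1l het replicates 1 and 2, at 858 CPM in Ash1l het replicate 3 and at 836 to 845 CPM in WT (log2 fold change -0.30, SE 0.15, edgeR adjusted p = 0.878). Ash1l het replicate 3 was above every WT library and the other Ash1l het libraries were below, so the groups overlapped.

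Of 13 genes on the H2 receptor's Gs side, 8 were higher and 5 lower by sign, with a median of 0.050. Prkar2b, a regulatory subunit of protein kinase A, was at 120, 60.2 and 122 CPM in Ash1l het, against 63.0 to 70.0 CPM in WT (0.61, SE 0.25, edgeR adjusted p = 0.857). Ash1l het replicate 2 was below WT there and the other Ash1l het libraries above. Gnas, the Gs alpha subunit, was at 196 ± 17.7 CPM in Ash1l het, against 168 ± 15.9 CPM in WT (0.22, SE 0.11, adjusted p = 0.878).

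On the H3 receptor's Gi/o side, 6 of 12 genes were higher and 6 lower by sign, with a median of -0.021. Cacna1a, a presynaptic calcium channel subunit that Gi/o proteins inhibit, was at 146 ± 28.7 CPM in Ash1l het, against 182 ± 15.8 CPM in WT (-0.32, SE 0.15, edgeR adjusted p = 0.858). Gnao1, the Go alpha subunit, was at 992 ± 167 CPM in Ash1l het, against 1170.1 ± 81.4 CPM in WT (-0.24, SE 0.14, adjusted p = 0.887). For both genes the groups overlapped.

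Of 8 genes for the other monoamines, 4 were tested, 1 higher and 3 lower by sign, and 0 passed. Tph2, which makes serotonin in raphe neurons, had 0, 3 and 3 counts in Ash1l het, against 9, 11 and 12 counts in WT (edgeR adjusted p = 0.758). All Ash1l het libraries lay below all WT libraries, as for 5.53% of tested genes, at a depth where 1 count is a large share of the value. Tph2 met the filter on low counts through its WT libraries alone, so its separation and its p-value both depend on WT being high. Th, the rate-limiting enzyme of dopamine synthesis, was at 5.23 ± 1.52 CPM in Ash1l het, against 7.45 ± 1.32 CPM in WT (-0.50, SE 0.24, adjusted p = 0.867).

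**Figure D5:**
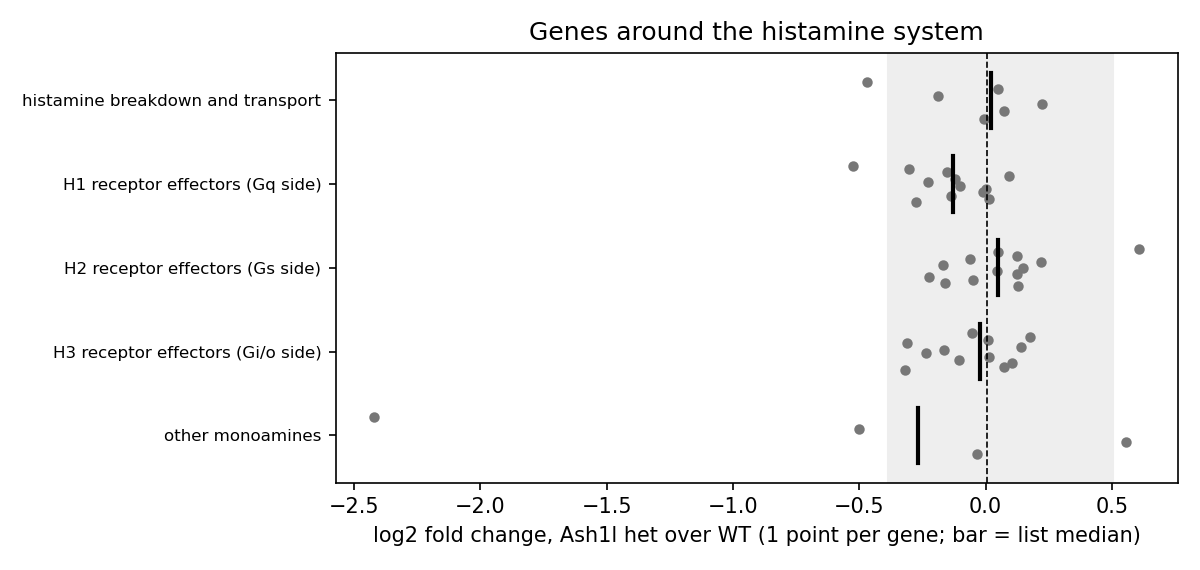
Log2 fold change of Ash1l het over WT for each tested gene of 5 lists around the histamine system (grey points, list median as a black bar); the band is the 5th to 95th percentile of all tested genes and the dashed line their median. List medians run from -0.27 to 0.050, and the point farthest left is Tph2.

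The genes whose pattern over the 6 libraries was most like that of each histamine gene were found by Pearson correlation of log2(CPM + 0.5), given as a description of 6 points that share libraries and depth. For Hrh3 they were Myh14, a non-muscle myosin heavy chain (r = 0.993), Nol6 (r = 0.992) and Mmp15, a membrane-bound metalloproteinase (r = 0.989). All 3 were lower in Ash1l het by sign, so their likeness to Hrh3 includes its group difference. With Hrh3, 101 genes had r above 0.95, against 27 with Hnmt, 25 with Hrh2, 27 with Hrh1 and 16 with Hdc. Myh14 was at 14.0 ± 7.09 CPM in Ash1l het, against 40.3 ± 4.58 CPM in WT (log2 fold change -1.51, SE 0.32, edgeR adjusted p = 0.724). For Hdc they were Ehmt1, a histone H3 lysine methyltransferase (r = 0.996), Vmac (r = 0.983) and Ccsap (r = 0.974). Hrh1 was closest to Synm, which encodes the intermediate filament protein synemin (r = 0.995), P2rx6 (r = 0.989) and Col4a6 (r = 0.984). Hrh2 was closest to Ntrk2, the BDNF receptor (r = 0.989), Dbpht2 (r = 0.988) and St7 (r = 0.981), and Hnmt to Inpp1 (r = 0.987), Ctnnal1 (r = 0.987) and Asf1a (r = 0.979).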

How the data were processed

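The authors deposited raw read counts per gene for 6 libraries and FPKM for the same genes, per the file headers; each sample file held the same counts as the series table (6 of 6). Per the labels' protocols the library kit keeps strand. GRCm38 is the build in the submitters' processing notes, which also list HISAT2, StringTie, edgeR, FastQC and CASAVA; their roles, versions and strand settings are not stated there. The length behind each FPKM was recovered from the count and library total and equalled the sum of distinct exons (within 0.5 base) for 67.5% of 15104 genes with at least 60 counts that matched GENCODE M21 (GRCm38).

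Counts were fitted in edgeR 4.0.16 under R 4.3.3 (quasi-likelihood test, robust, TMM scaling, default filter with minimum count 10, genotype alone), Benjamini-Hochberg adjusted over 15267 genes at 0.05. CPM are on the TMM scale. The steps were tested on simulated data. Members, gene lists and alternatives (19 settings, with DESeq2 1.42.0 and limma 3.58.1 among them) were chosen with earlier results of these data known. Besides the 5 members and Ash1l, named genes were the 2 with the smallest unadjusted p of each pathway list and the 3 nearest patterns of each member, with 1 pathway gene not reported here; Maob, Slc18a2, Aoc1, Hrh4, marker genes and neighbours were named after their values were seen.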

Additional observations from a re-analysis of the deposited data

How the results depend on the processing

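Over 19 alternatives the 5 histamine genes gave 91 values, of which 0 passed the adjusted threshold. Hrh3 kept its sign in all 19, from -0.59 to -0.41 when 1 library was left out and from -0.47 to -0.039 in the rest. Its unadjusted p was under 0.05 in 17, and its adjusted p ran from 0.156 to 1. The exceptions were the fits with the Gfap covariate (-0.26, SE 0.13) and the globin covariate (-0.039, SE 0.26). The globin value was thus within its error of 0. The settings share libraries, so they are not independent. Signs turned without Ash1l het replicate 3 for Hrh1 (0.12) and Hdc (-0.21), and for Hnmt without WT replicate 3 (-0.0071) and with the Gfap covariate (-0.030). Leaving out single libraries gave log2 fold changes of -0.33 to 0.12 for Hrh1, -0.21 to 0.18 for Hdc, -0.0071 to 0.19 for Hnmt, 0.13 to 0.26 for Hrh2 and -0.41 to -0.16 for Ash1l. Without Ash1l het replicate 2 the groups of Hrh2 no longer overlapped (higher), nor without Ash1l het replicate 3 those of Hdc (lower), nor without WT replicate 1 those of Hnmt (higher). With 1 library left out, 8.72% to 14.3% of tested genes had groups that did not overlap in a given direction. These shares include the 5.53% (lower) and 6.18% (higher) that were already apart with all 6 libraries. Hdc and Hrh1 had no value on the FPKM scales, where they missed the filter.

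Over the whole table the fit called 2 genes, both higher. DESeq2 called 35 and the exact test of edgeR 39; the globin covariate gave 0 (347 with an unadjusted p under 0.05), the Gfap covariate 1, leaving out both Ash1l het replicates 1 and 2 gave 50, and leaving out single libraries gave 1 to 13. The cause was not tested. With the replicate number as a block 3 genes were called and Hrh3 was at -0.47 (adjusted p = 0.840); no call on a histamine gene changed. Same-numbered libraries deviated together with correlations of only 0.068, -0.077 and 0.0071, so the number was not taken as a pairing, and Ash1l het replicate 2 correlated best with WT replicate 1. Depth limits Hdc and Hrh1 most, with 27 to 56 counts and 32 to 53 counts a library.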
